A study of Mus musculus with 267 samples.

Results

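Cx3cr1 encodes the receptor for fractalkine (CX3CL1), a chemokine that is made as a membrane-anchored protein and can be shed from the cell surface. The receptor couples to inhibitory G proteins and is known for its high expression in monocytes, microglia and other resident macrophages, where it is widely used as a marker gene. The data described here are chromatin measurements within 50 kb of the start of Cx3cr1 on mouse chromosome 9 (mm10, minus strand, start at position 120069879 in GENCODE vM21). Of 423610 regions in 9 deposited tables of normalized sequencing tags, 88 had their centre in this window, and so did 427 of 1958714 transcription factor peaks in 54 peak lists. The window held 13 regions in the C57 table, 12 in BALB, 16 in NOD, 14 in PWK and 14 in SPRET, 13 in the C57 time-course table and 6 in the EGR2 table. The locus was chosen by measured values of histone H3 lysine 27 acetylation (H3K27ac) in the BALB and PWK libraries, which were already known to be far lower after 24 h of IL-4. H3K27ac in those strains, and H3K4me2 and H3K4me3 in PWK, are therefore given below as a description with no test. The H3K27ac tests in C57, NOD and SPRET use other libraries of the same mark and contrast, from tables that had also been examined before.

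The cells were bone marrow-derived macrophages (BMDMs) of female mice of 8 to 12 weeks, differentiated with M-CSF, from 5 inbred strains: PWK/PhJ (PWK), C57BL/6J (C57), SPRET/EiJ (SPRET), BALB/cJ (BALB) and NOD/ShiLtJ (NOD). They were left untreated (basal) or received IL-4 at 20 ng/ml for 24 h, and in C57 also for 1 and 6 h. IL-4 is a cytokine that acts through the transcription factor STAT6 and drives the alternatively activated macrophage state. Chromatin immunoprecipitation sequencing measured H3K27ac, a mark of active promoters and enhancers, RNA polymerase II (Pol II), the promoter and enhancer marks H3K4me3 and H3K4me2, and the factors PU.1, C/EBPb, STAT6, EGR2 and PPARg. The series also has macrophages with floxed Egr2 alleles (Egr2 fl/fl), with or without Cre driven by the myeloid LyzM promoter, but their 2 tables held 0 regions in the window, so no effect of Egr2 loss on this locus is given.

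Values are tags normalized to 10000000 per library, as deposited, in regions of about 1 kb, shorter peak regions in the EGR2 table, and differences are on the log2(tags + 1) scale, 24 h minus basal unless another contrast is named. The 103 libraries used held 4691644 to 29050468 tags. Each group of a histone mark had 2 libraries and each Pol II group 2 to 4, apart from the single C57 Pol II library at 1 h, and these numbers limit the precision of every value. The study's methods call the replicates biological, whereas the labels do not say which mouse or culture each library came from. The C57 basal and 24 h libraries are the same in the strain and time-course tables, so the 24 h contrast of the latter is not a second measurement. As a check of the cell type, a region lay at the start of 8 of 8 macrophage marker genes (7 in SPRET) and of 0 of 5 T cell, 1 to 3 of 5 neutrophil, 1 to 2 of 4 B cell, 1 to 2 of 3 dendritic cell and 0 to 1 of 4 fibroblast markers. The summed basal H3K27ac of those lists was 53.8 to 347.1 tags (neutrophil), 61.0 to 121.6 (B cell), 0.8 to 13.1 (dendritic cell) and 0.0 to 2.7 (fibroblast), against 2820.4 to 4778.5 for macrophages. These sums cover unlike numbers of genes. By single genes, the highest neutrophil marker was above the lowest macrophage marker in BALB (172.29 against 115.61 tags), NOD (238.54 against 201.35), PWK (164.42 against 92.67) and SPRET (229.89 against 16.45). In C57 it was below (37.44 against 189.57). The highest B cell marker was above the lowest macrophage marker in PWK (96.56) and SPRET (121.56) only. In this bulk material, fewer cells carrying a mark and less of the mark per cell cannot be told apart.

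Regions are named by their distance in kb downstream (+) or upstream (-) of the gene start. The annotated start belongs to the transcript Cx3cr1-203, and the other 2 transcripts start 1583 bp further downstream. Overlapping promoter regions were centred at +1.0 kb and +1.6 kb, and in SPRET at +1.6 kb only. The +1.0 kb region is nearest to the annotated start and is called the start region (in SPRET the +1.6 kb region), and the +1.6 kb region, which covers the starts of the other 2 transcripts, is called the TSS region. By the deposited annotation, which names RefSeq transcripts, regions at +11 and +14.9 kb lay in intron 1 and that at +20.2 kb in the 3′ untranslated region. Those at +26.5, +32.3 and +41.9 kb were labelled intergenic, and so were those at -3.4 and -13.4 kb. In GENCODE vM21, however, the transcript Cx3cr1-202 extends to position 119901616, so the regions from +26.5 to +41.9 kb lie within its span. The promoter of the neighbouring gene Slc25a38, a mitochondrial glycine carrier, was covered by the -40.9 kb region, and regions at -46.4 and -48.5 kb lay in Slc25a38 introns. The noncoding gene Gm33858 starts inside the start region on the opposite strand and shares its tags. Ccr8, a chemokine receptor gene also in the window, and the uncharacterized Gm47050 had no region at their starts, and Xirp1, which encodes an actin-binding protein of muscle, lay at the far downstream edge. At the limits of the window, mean C57 H3K27ac went from 14.32 to 7.2 tags just inside the downstream limit (+41.9 kb) and from 2.07 to 4.74 just outside it (+52.8 kb), and from 111.13 to 50.14 just inside the upstream limit (-48.5 kb) and from 248.46 to 158.77 just outside it (-57.7 kb).

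The sequences below are those of the sites at which the factor results turn. They are read on the strand of Cx3cr1 from the RefSeq mm10 genome, which is that of C57BL/6J, and not from the other strains. The first is the intron 1 site that held PU.1, C/EBPb and STAT6 in every strain (chr9:120058821-120059020). The next are the downstream EGR2 site (chr9:120043304-120043503), the upstream PPARg site (chr9:120083179-120083378) and 30 bases of the promoter PU.1 peak (chr9:120068885-120068914). Capitals mark matches to 1 of 6 motifs searched on both strands: GAGGAAG (PU.1 type), TTGCNNAA (C/EBP type), GTGGGNG (EGR type), AGGTCA (nuclear receptor type), TTCNNNGAA (STAT type) and the longer STAT6 type.
+11 kb site: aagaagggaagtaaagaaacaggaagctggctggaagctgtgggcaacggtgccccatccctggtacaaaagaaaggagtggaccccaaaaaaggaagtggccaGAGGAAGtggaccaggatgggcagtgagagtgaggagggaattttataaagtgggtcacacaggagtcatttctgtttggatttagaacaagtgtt
+26.5 kb site: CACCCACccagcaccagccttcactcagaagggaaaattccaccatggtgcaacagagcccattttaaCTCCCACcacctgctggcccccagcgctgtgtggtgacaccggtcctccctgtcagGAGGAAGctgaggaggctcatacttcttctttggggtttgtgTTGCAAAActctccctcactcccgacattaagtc
-13.4 kb site: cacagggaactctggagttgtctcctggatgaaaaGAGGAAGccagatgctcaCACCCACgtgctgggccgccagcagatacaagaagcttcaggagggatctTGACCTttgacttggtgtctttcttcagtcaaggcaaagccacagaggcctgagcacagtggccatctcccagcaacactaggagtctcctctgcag
promoter PU.1 peak: actaaccgaggCTTCCTCaaatgtgaacag

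All 4 sequences held the PU.1 type motif, the last on the opposite strand, and 37.2% of 85915 PU.1 peaks in basal C57 cells held it in 200 bases. The +26.5 kb site held the EGR type motif at 2 positions, as did 50.1% of 29400 C57 EGR2 peaks at 24 h at least once. The -13.4 kb site held the nuclear receptor type motif AGGTCA, found in 22.8% of 39088 C57 PPARg peaks at 24 h. Neither the STAT nor the STAT6 type was found in these sequences. The RefSeq promoter of Cx3cr1 (300 bases around the start of the RefSeq transcript) held none of the 6 motifs, which were present in 6.98% (STAT6 type) to 31.6% (EGR type) of 32544 RefSeq promoters. These matches describe letters in the windows and do not show that a factor was bound through them.

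Pol II at the Cx3cr1 promoter was lower after 24 h of IL-4 in every library of every strain. In C57 the start region held 26.83, 29.69, 68.6 and 84.05 tags in the basal libraries and 2.67, 3.64 and 7.7 after IL-4. In PWK it went from 78.3, 80.43 and 90.92 to 3.6, 5.39 and 5.13. In BALB the values were 54.93, 50.41 and 50.32 basally against 10.66 and 5.55. These groups did not overlap, and the highest treated library, 11.47 in NOD, was below the lowest basal one of any strain. NOD had 37.63 and 68.47 tags basally and 5.09 and 11.47 after IL-4. SPRET had 63.86, 23.6 and 20.54 tags basally and 0.85, 5.65 and 2.77 after IL-4.

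**Figure D1:**
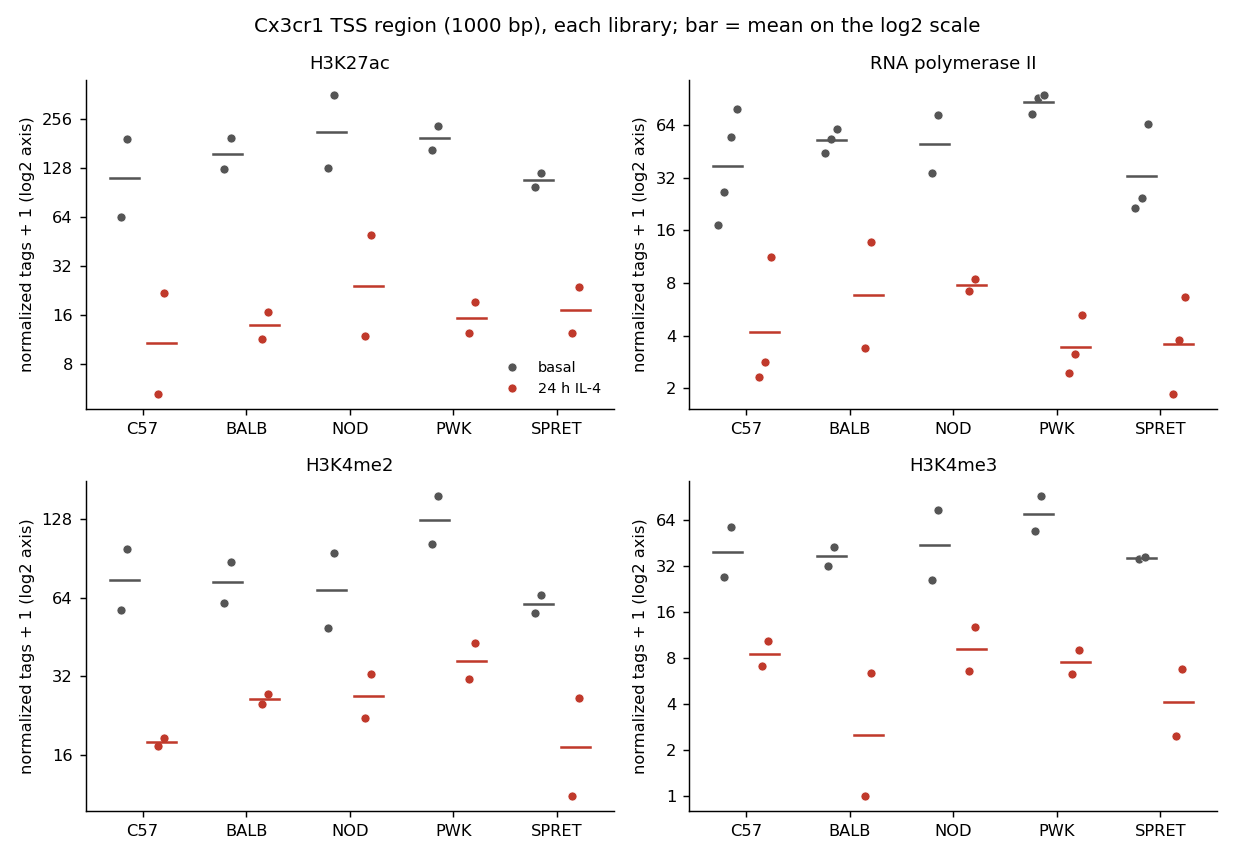
Normalized tags plus 1 (log2 axis) at the TSS region of Cx3cr1 (+1.6 kb) in each library, by mark and strain, basal and after 24 h of IL-4; each point is 1 library and each bar the mean on the log2 scale. For each of the 4 marks, all treated libraries sit below all basal libraries of their strain.

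The log2 difference in Pol II at the start region was -3.16 in C57 (SE 0.493, limma adjusted p = 0.013), -2.60 in BALB (SE 0.648, adjusted p = 0.015), -3.9 in PWK (SE 0.337, adjusted p = 5.7e-05) and -3.18 in SPRET (SE 0.554, adjusted p = 0.022). In NOD it was -2.57 (SE 0.516) and missed the threshold (limma adjusted p = 0.29). At the TSS region Pol II fell in C57 (-3.16, limma adjusted p = 0.041), BALB (-2.94, adjusted p = 0.0026) and PWK (-4.65, adjusted p = 5.2e-05), while the NOD difference was -2.68 (adjusted p = 0.25). Among all regions of its table, the TSS region had the lowest Pol II difference in PWK and SPRET, the fourth lowest in C57, the fifth lowest in BALB and the tenth lowest in NOD. The mean difference over the 5 strains was -3.08 at the start region and -3.32 at the TSS region, lower in 5 of 5 strains. An exact permutation test of labels within strains (two-sided, 840000 arrangements of 28 libraries) gave p = 1.19e-06 for both, the smallest it can give, and 4.762e-06 adjusted over 8 tests. The limma call at the start region was lost in C57 without 24 h library 1 (adjusted p = 0.121), 24 h library 2 (0.12), basal library 3 (0.0647) or basal library 4 (0.0906), and in BALB and SPRET without any 1 library (0.0708 to 0.788 and 0.0558 to 0.126).

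H3K27ac at the start region was lower alongside. C57 had 74.63 and 243.86 tags basally and 7.64 and 17.06 after IL-4, NOD 145.46 and 397.68 against 10.13 and 54.03, and SPRET 117.12 and 96.8 against 11.46 and 22.62. The described strains moved as far, from 137.42 and 212.09 to 16.57 and 10 tags in BALB and from 228.32 and 283.45 to 17.51 and 15.27 in PWK. No treated library reached its strain's lower basal library. The log2 difference passed the limma threshold in SPRET (-2.65, SE 0.417, adjusted p = 0.0042), but not in C57 (-3.44, SE 0.683, adjusted p = 0.11) or NOD (-3.29, SE 0.777, adjusted p = 0.17). It was -3.63 in BALB and -3.88 in PWK. The mean over C57, NOD and SPRET was -3.13 at the start region and -3.05 at the TSS region, lower in 3 of 3 strains (exact permutation test within strains, two-sided, 216 arrangements of 12 libraries, p = 0.009259 for both, the smallest possible, and the same when adjusted over 8 tests). Each strain's limma call rested on single libraries. The SPRET call was lost without any 1 library. Leaving out 1 library leaves its group without a replicate, so only the size of the difference is given for those fits. It ranged from -4.29 to -2.60 in C57, from -4.44 to -2.14 in NOD and from -3.11 to -2.19 in SPRET. Basal C57 libraries had 65.42 and 59.62% of their H3K27ac tags in the regions of the table against 43.17 and 38.21% after IL-4, and with scaling by the median ratio of all regions the start-region difference was -3.11 in C57 and -2.91 over C57, NOD and SPRET.

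H3K4me2 and H3K4me3, marks laid down at promoters and enhancers by lysine methyltransferases, were also lower at the start region in every treated library. H3K4me2 in C57 went from 70.24 and 118.94 tags to 23.23 and 24.89, a difference of -1.88 (SE 0.446, limma adjusted p = 0.016) against a median of -0.69 over all regions. That call was lost with scaling by the median ratio (-1.20, limma adjusted p = 0.106), and also without 24 h library 2, basal library 1 or basal library 2. In BALB, NOD and SPRET the H3K4me2 differences were -1.24, -1.08 and -1.82 (limma adjusted p = 0.67, 0.3 and 0.08), and in PWK -1.40, from 115.82 and 132.81 tags to 52.43 and 40.87. With scaling by the median ratio the BALB value was -0.61. Without 24 h library 1 it was -1.30. The NOD H3K4me2 difference was -1.39 without basal library 1, and that of SPRET was -2.44 without 24 h library 2 and -1.94 without basal library 1. These fits leave 1 library in a group, so no p is given for them.

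H3K4me3, which marks active promoters most strongly, was lower by -1.93 in C57, -1.45 in BALB, -2.52 in NOD and -3.15 in SPRET, none past the limma threshold (adjusted p = 0.24, 0.77, 0.18 and 0.75). The described PWK difference was -2.42, from 22.13 and 35.43 tags to 6.44 and 2.97. At the TSS region H3K4me3 in BALB had 31.19 and 42.1 tags basally and 0 and 5.39 after IL-4, where 0 reads allow up to 2.48 tags, a limit that covers counting error only. Over C57, BALB, NOD and SPRET the mean start-region difference was -1.51 for H3K4me2 and -2.26 for H3K4me3, and at the TSS region -1.68 and -2.88. All 4 means came from lower values in 4 of 4 strains and had the same p in the exact permutation test within strains (two-sided, 1296 arrangements of 16 libraries, p = 0.001543, the smallest possible, adjusted 0.002058). With scaling by the median ratio the H3K4me2 mean at the start region was -0.99.

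Read against the whole tables, the share of regions with every treated library below every basal one was 34.8 (C57), 28.8 (BALB), 27.6 (NOD), 25.3 (PWK) and 23.9% (SPRET) for H3K27ac and, by strain, 5.29 to 18.3% for Pol II, 23.8 to 61.0% for H3K4me2 and 15.3 to 23.5% for H3K4me3. In the Cx3cr1 window the count of such regions was 12 of 13 (C57), 10 of 12 (BALB), 13 of 16 (NOD), 10 of 14 (PWK) and 12 of 14 (SPRET) for H3K27ac. For Pol II it was 7 of 13, 9 of 12, 12 of 16, 9 of 14 and 10 of 14. H3K4me3 had only 4 of 13, 6 of 12, 3 of 16, 4 of 14 and 4 of 14, the promoter regions among them. H3K4me2 had 10 of 13, 8 of 12, 12 of 16, 8 of 14 and 14 of 14 such regions.

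With a change of 2.5-fold or more and a mean of at least 16 tags in either group (8 for Pol II), H3K27ac was lower at 9 of 13 window regions in C57 (7.55% of all regions), 7 of 12 in BALB (5.13%), 11 of 16 in NOD (5.14%), 10 of 14 in PWK (3.01%) and 9 of 14 in SPRET (0.939%). For Pol II the counts were 7 of 13 (1.66%), 7 of 12 (0.929%), 8 of 16 (1.25%), 8 of 14 (0.932%) and 9 of 14 (0.805%). In BALB and PWK the H3K27ac counts restate how the locus was chosen. A single library moved 4 of these counts by over 1.5 times: H3K27ac gave 5 regions in C57 without basal library 2 and 5 in SPRET without basal library 1, and Pol II gave 4 in BALB without 24 h library 2 and 5 in SPRET without basal library 1.

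By limma, Pol II fell at 5 of 13 window regions in C57 (0.096% of all regions), 3 of 12 in BALB (0.0444%), 7 of 14 in PWK (0.281%) and 4 of 14 in SPRET (0.27%). H3K27ac fell at 6 of 14 in SPRET (0.192%), and H3K4me2 at 2 of 13 in C57 (0.0576%), counts of 1 and 0 with scaling by the median ratio. In C57, limma called 0 of 13 for H3K27ac and lowered 0.0% of the table, in which 14904 regions had an unadjusted p under 0.05, edgeR called 10 regions lower and DESeq2 called 4 of the 13. In NOD, limma called 0 of 16 for H3K27ac (0.0%, 8578 regions with an unadjusted p under 0.05, 0 lower by edgeR, 5 of the 16 by DESeq2) and 0 of 16 for Pol II (0.0%, 5271 such regions, 2 lower by edgeR, 2 of the 16 by DESeq2). The share of all regions that DESeq2 called is not given, so its counts are not read against the whole tables. Same-numbered SPRET Pol II libraries deviated together, and in a fit that blocked on replicate number the SPRET count was 9 of 14, against 4.83% of all regions. Same-numbered H3K27ac libraries of C57 (r = 0.706) and NOD (0.7) also deviated together. The block changed their calls too, as given with the other alternatives near the end. The Pol II count by limma was 0 of 13 in C57 without 24 h library 1 or 2 or basal library 4, 1 without basal library 3 and 2 without basal library 2. In BALB it was 0 of 12 without basal library 2 or 3 and 1 without any of the other 3 libraries, and in PWK 2 of 14 without 24 h library 2 or basal library 3 and 4 without basal library 2. Without any 1 library, the SPRET counts were 0 of 14 for H3K27ac and, for Pol II, 0 or, without basal library 2, 2. The H3K27ac counts of C57 and NOD also changed without single basal libraries, in fits that leave 1 library in a group and are not counted here.

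**Figure D2:**
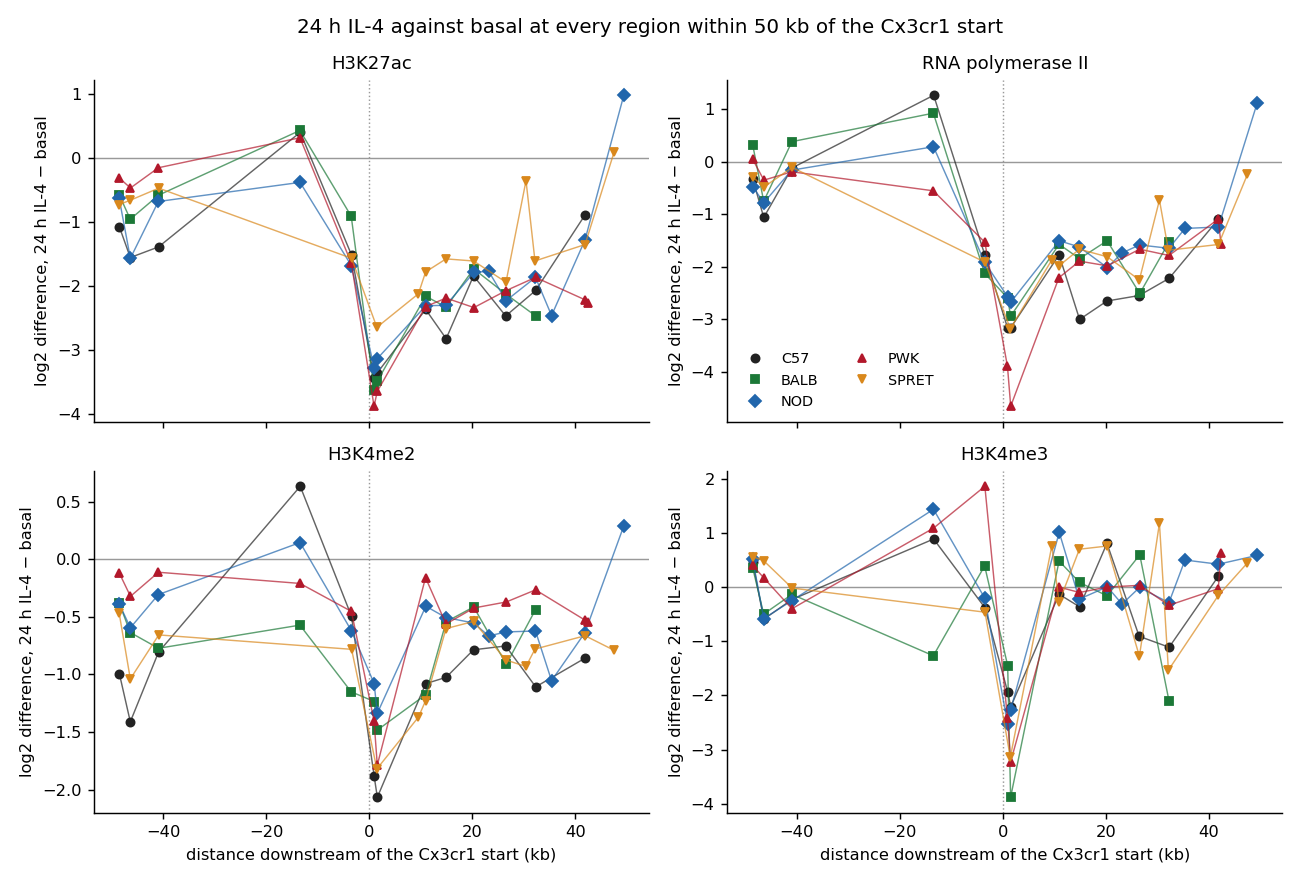
Log2 difference in tags plus 1, 24 h of IL-4 minus basal, for each region of the Cx3cr1 window against its distance from the gene start in kb, by mark, with strains by colour. H3K27ac and Pol II lie below 0 from the promoter to the +32.3 kb region in the 5 strains, and Pol II at the Slc25a38 promoter (-40.9 kb) lies near 0.

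The gene body and the downstream intergenic regions also had less H3K27ac after IL-4. The +26.5 kb region held 103.12 and 329.43 tags in basal C57 cells and 25.46 and 41.35 after IL-4. In SPRET it held 347.08 and 265.38 tags basally against 55.54 and 109.85. Groups did not overlap in any strain at +11, +14.9, +20.2, +26.5 and +32.3 kb. The +26.5 kb difference was -2.07 for PWK, -2.47 for C57, -2.23 for NOD, -2.13 for BALB and -1.94 for SPRET, the last past the limma threshold (adjusted p = 0.017), as were the SPRET regions at +11 (-1.78, 0.019), +14.9 (-1.58, 0.037), +32.3 (-1.61, 0.043) and +9.5 kb (-2.12, 0.013).

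Pol II at +26.5 kb went from 59.28, 26.48, 50.38 and 52.66 tags to 3.33, 5.46 and 16.67 in C57. It went from 82.53, 58.75 and 73.49 to 23.73, 17.24 and 24.8 in PWK. The groups were separate in all strains, and the difference passed limma in C57 (-2.55, adjusted p = 0.039), BALB (-2.51, 0.022), PWK (-1.67, 0.011) and SPRET (-2.25, 0.025). Pol II also fell at +14.9 kb in C57 (-3.0, limma adjusted p = 0.011).

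The methylation marks had smaller differences at +26.5 kb, though not at every region. H3K4me2 at +26.5 kb averaged 69.79 tags basally and 41.11 after IL-4 in C57, and 88.34 and 69.9 in PWK, differences of -0.75 and -0.37 against all-region medians of -0.69 and -0.18. H3K4me3 at +26.5 kb was low, with basal means of 3.21 to 8.37 tags. At +32.3 kb, however, H3K4me3 went from 10.17 and 15.08 to 1.65 and 2.69 tags in BALB (-2.10, limma adjusted p = 0.77) and from 60.3 and 41.77 to 8.19 and 32.95 in SPRET (-1.54). These groups did not overlap, while those of C57 and NOD did at that region. H3K4me2 was also lower without overlap in C57 at +32.3 kb (-1.11) and +11 kb (-1.08), neither past the limma threshold. Whether the H3K4me2 difference at the promoter exceeds that at +26.5 kb was not tested.

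Upstream of the gene the differences were smaller and varied between strains and marks. At -3.4 kb H3K27ac was lower without overlap in all 5 strains but at a basal mean of only 11.25 to 25.94 tags. At -13.4 kb H3K27ac was low, with basal means of 3.46 to 8.05 tags, and the groups overlapped in the 4 strains with a region there. The Slc25a38 promoter at -40.9 kb carried the highest H3K4me3 of the window, with basal means of 453.96 to 495.6 tags, and its Pol II averaged 97.4 to 143.62 tags basally. Its Pol II groups overlapped in every strain, with differences of 0.38 for BALB, -0.12 for C57, -0.16 for NOD, -0.19 for PWK and -0.11 for SPRET. Its H3K27ac was nevertheless lower without overlap in C57, from 117.37 and 98.4 to 52.63 and 30.85 tags (-1.39), and also in NOD (-0.68) and SPRET (-0.47), whereas the groups of BALB (-0.58) and PWK (-0.16) overlapped. In the Slc25a38 introns at -46.4 and -48.5 kb, H3K27ac was lower without overlap in C57 (-1.56 and -1.08), BALB (-0.96 and -0.58), NOD (-1.57 and -0.64) and SPRET (-0.66 and -0.73), and the PWK groups overlapped (-0.47 and -0.32). None of these upstream H3K27ac differences that was tested passed the limma threshold.

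In the C57 time course the promoter was already low at 1 h. H3K27ac at the start region held 74.63 and 246.72 tags basally, 6.96 and 24.44 at 1 h, 8.47 and 7.3 at 6 h, and 7.64 and 16.41 at 24 h. Pol II held 25.58, 28.09, 66.99 and 82.02 tags basally, 1.02 in the single library at 1 h, 2.19 and 1.46 at 6 h, and 2.67, 3.64 and 7.7 at 24 h. All libraries of all 3 IL-4 times were below all basal libraries.

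The H3K27ac difference from basal was -3.27 at 1 h, -3.95 at 6 h and -3.48 at 24 h (limma adjusted p = 0.015, 0.0037 and 0.015), and that of Pol II was -4.50, -4.03 and -3.11 (0.039, 0.0039 and 0.0083). The 1 h Pol II value rests on 1 library, which the fit assumes to vary like the other groups, so its p has no replicate check at that time and its call was also lost with a pseudocount of 5 (limma adjusted p = 0.0721). Between 6 and 24 h the H3K27ac difference was 0.47 (limma adjusted p = 0.97), which does not show that the levels were the same. The 1 h H3K27ac libraries had 43.95 and 20.54% of their tags in the regions of the table, the median difference of all regions at 1 h was -0.63, and with scaling by the median ratio the 1 h value was -2.47 (limma adjusted p = 0.0965) and the 24 h value -3.16 (0.0583). The H3K27ac call was lost at 1 h and 24 h without basal library 2 (limma adjusted p = 0.15 and 0.133), at 24 h without 24 h library 1 (0.0881), and at 6 h without 6 h library 1 (0.0763) or 2 (0.0781). That of Pol II was lost at 1 h without basal library 2, 3 or 4 (0.063, 0.0763 and 0.111), at 6 h without 6 h library 1 (0.123) or 2 (0.13), and at 24 h without 24 h library 1 (0.0884) or 2 (0.0532).

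**Figure D3:**
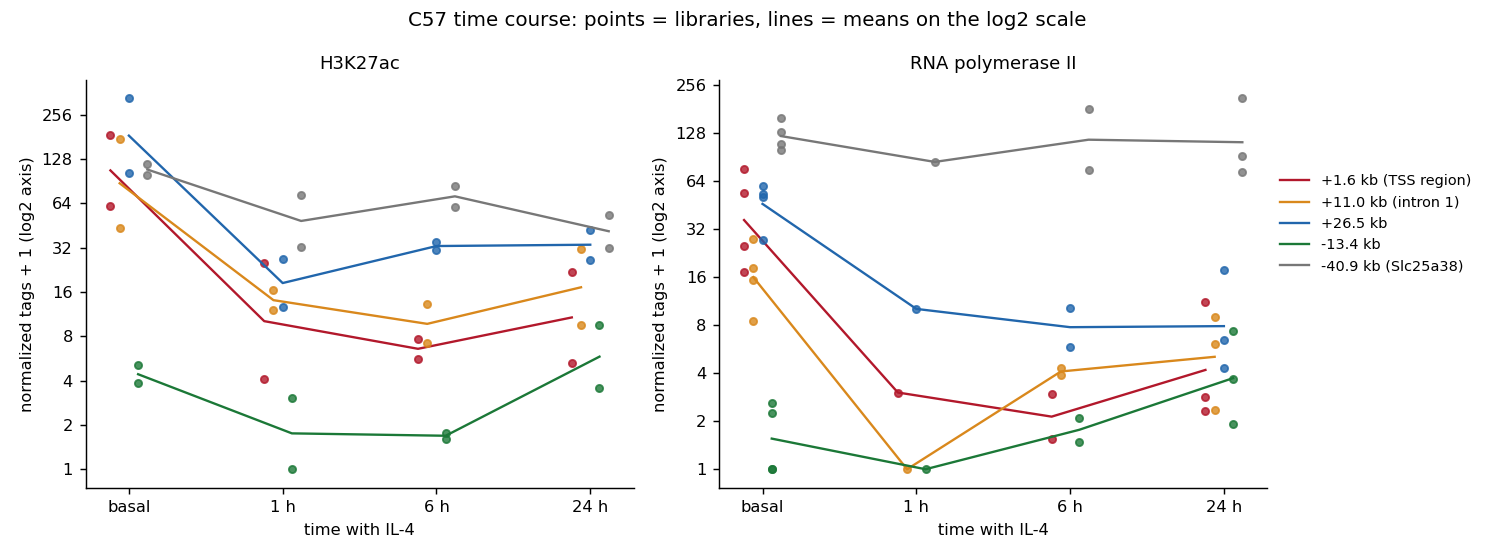
Normalized tags plus 1 (log2 axis) of H3K27ac and Pol II at 5 regions of the window in C57 libraries, basal and after 1, 6 and 24 h of IL-4 (evenly spaced); points are libraries and lines join the means on the log2 scale. At the TSS region every IL-4 library is below every basal one for both marks, from 24.1 tags down to 3.09 at 1 h for H3K27ac, while Pol II at the Slc25a38 promoter overlaps with basal at 6 and 24 h.

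Of the 13 window regions, limma called H3K27ac lower at 7 at 1 h (8.36% of all regions), 6 at 6 h (2.46%) and 2 at 24 h (0.327%), and Pol II at 1 (0.0449%), 5 (0.137%) and 5 (0.174%). With scaling by the median ratio the H3K27ac counts were 0 at 1 h and 1 at 24 h, and the Pol II count at 6 h was 3. Every H3K27ac library was below every basal one at 13 regions at 1 h (42.6%), 12 at 6 h (33.4%) and 12 at 24 h (32.9%). The intron 1 region at +11 kb followed the promoter, with H3K27ac at 42.74 and 173.98 tags basally, 15.46 and 11.02 at 1 h, 6.16 and 12.17 at 6 h, and 8.49 and 30.19 at 24 h. For Pol II the counts of regions with every library below basal were 10 (30.5%, from the 1 library at 1 h), 9 (9.84%) and 7 (5.04%). Pol II at +11 kb at 1 h was 0 reads, which allows up to 1.52 tags. At the Slc25a38 promoter Pol II was 130.41, 158.08, 99.68 and 108.35 tags basally, 83.78 at 1 h, 73.92 and 181.35 at 6 h, and 91.37, 211.62 and 71.83 at 24 h. The 1 h library was thus below the basal ones, and those of 6 and 24 h overlapped with them. H3K27ac there was below both basal libraries, of 117.37 and 98.4 tags, at every time, with 71.89 and 31.32 tags at 1 h, 59.3 and 83.37 at 6 h, and 52.63 and 30.85 at 24 h. Leaving out basal library 2 took the H3K27ac counts to 0, 1 and 0 regions, and leaving out either 6 h library took both the H3K27ac and the Pol II count at 6 h to 0. The H3K27ac count was 4 at 1 h without 1 h library 2, and at 24 h it was 6 without basal library 1 and 0 without 24 h library 1. The Pol II count was 3 at 1 h without basal library 1 and 0 without basal library 2, 3 or 4, it was 3, 2 and 1 at 6 h without those, and at 24 h it was 2 without basal library 3 or 4 and 1 without 24 h library 1 or 2.

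EGR2, a zinc finger factor whose gene is induced by IL-4 in macrophages, was measured as tags at 6 sites of the window. At +26.5 kb there were 92.26 and 107.44 EGR2 tags basally, 6.32 and 75.22 at 1 h, 34.92 and 153.81 at 6 h, and 114 and 111.36 at 24 h. At +11 kb there were 50.58 and 61.78, then 13.55 and 36.65, 40.15 and 55.52, and 55.65 and 37.44. The 1 h libraries lay below basal at both sites and at 3 of 6 in all, as at 25.9% of all EGR2 sites. Of their tags, 5.38% (library 1) and 13.11% (library 2) lay in the EGR2 sites, against 10.77 to 22.03% in the other EGR2 libraries. The part of this in the 1 h values was not tested. The libraries of 6 h overlapped with basal at both sites, and those of 24 h were above basal at +26.5 kb and overlapped with it at +11 kb. None of the 6 sites passed limma at any time, as none of the table's 30675 did (0.0%), of which 1085, 1169 and 1038 had an unadjusted p under 0.05 at 1, 6 and 24 h. Leaving out 1 h library 2 leaves 1 library at 1 h, so no call from that fit is given. Over that whole table edgeR called 0, 2 and 0 sites and DESeq2 called 54 higher at 1 h, 86 higher and 10 lower at 6 h, and 28 higher at 24 h. The median EGR2 difference over all sites was -0.59 at 1 h, 0.17 at 6 h and 0.66 at 24 h.

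Factor peaks were still listed after IL-4 at regions with lower marks. Peaks of the 54 lists fell at 33 sites in the window, 7 of them with peaks of all 5 factors, and the intron 1 site (+11 kb) and the downstream site (+26.5 kb) were each present in 50 lists. Each list stands for 1 group, with replicates merged by the authors, so that these are descriptions without replicate error.

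**Figure D4:**
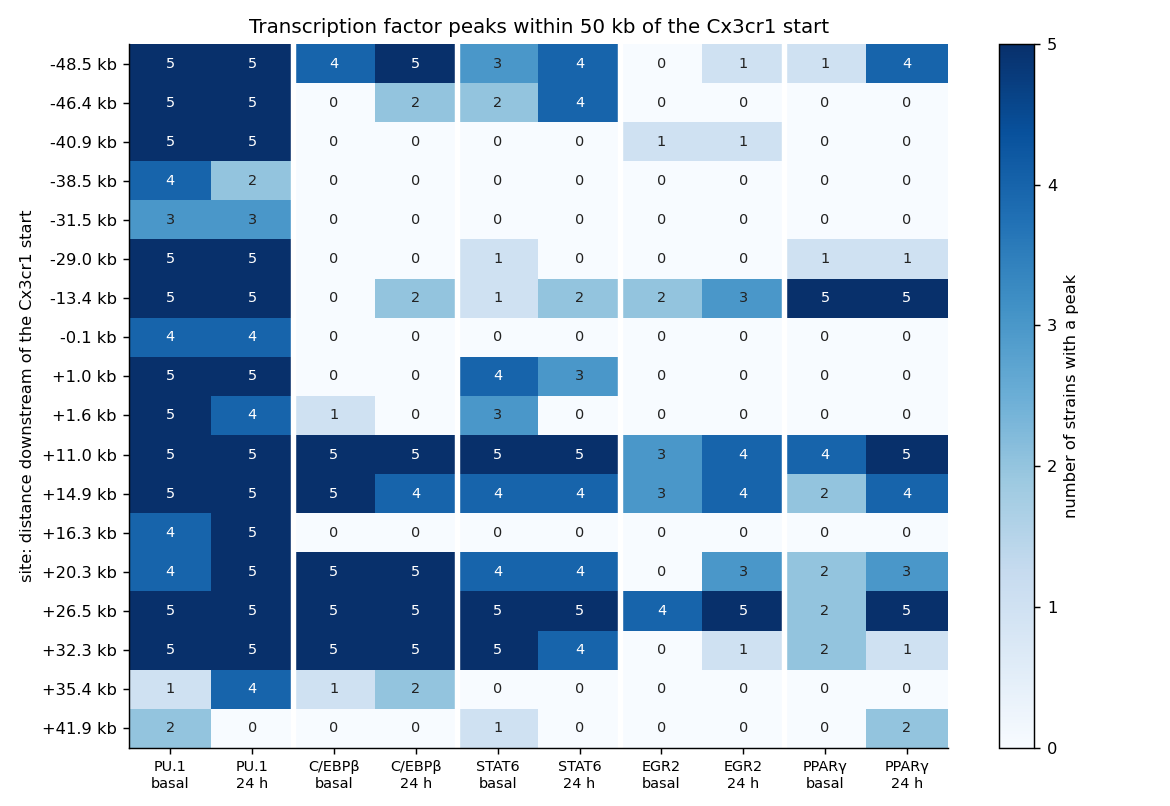
Number of the 5 strains with a peak, for sites of the Cx3cr1 window with a peak in at least 5 lists (rows, kb from the gene start) and each factor (columns), basal and after 24 h of IL-4. PU.1, C/EBPb and STAT6 have a peak at +11 and +26.5 kb in all 5 strains in both conditions.

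PU.1, the lineage-determining factor of myeloid cells, had its strongest peak of the window at +11 kb. By tag count this peak ranked 22 of 85916 in the basal C57 list, and 21, 24, 17 and 20 in the basal BALB, NOD, PWK and SPRET lists. After 24 h of IL-4, in lists of other lengths, it ranked 31 in C57, 49 in BALB, 24 in NOD, 22 in PWK and 26 in SPRET. Its count as the authors give it went from 662 to 648 in C57, 695 to 538 in BALB, 638 to 679 in NOD, 641 to 523 in PWK and 650 to 540 in SPRET. Relative to the median change of all PU.1 peaks shared by a strain's lists, the log2 ratio was -0.04, 0.06, -0.17, 0.10 and 0.24.

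The PU.1 peaks at +1.6 and +1.0 kb behaved otherwise. At +1.6 kb the count went from 88 to 51 in C57, 140 to 38 in BALB, 113 to 54 in NOD and 136 to 38 in PWK, and the SPRET peak of 72 had no counterpart at 24 h. Relative to the median these log2 ratios were -0.80, -1.46, -1.33 and -1.45, and the share of shared PU.1 peaks with a ratio as low was 1.3% in C57, 0.0056% in BALB, 0.0092% in NOD and 0.0046% in PWK. At +1.0 kb the counts went from 306 to 188 in C57, 258 to 141 in BALB, 274 to 245 in NOD, 247 to 123 in PWK and 256 to 146 in SPRET, and the shares of shared peaks as low were 2.1, 9.4, 6.9, 2.4 and 17%. At +11 kb the corresponding shares were 44, 57, 27, 63 and 77%. The peak at -0.1 kb, over the annotated start, went from 57 to 55 in C57, 89 to 42 in BALB, 59 to 55 in NOD and 62 to 54 in SPRET. Its shares were 42, 3.0, 9.7 and 82%. Sites away from the promoter also had low shares in some strains. At +16.3 kb they were 9.9 (C57), 3.2 (NOD), 25 (PWK) and 2.4% (SPRET), and at -46.4 kb 3.7 (C57), 57 (BALB), 23 (NOD), 4.5 (PWK) and 71% (SPRET). Without replicate values, none of these ratios has a test.

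**Figure D5:**
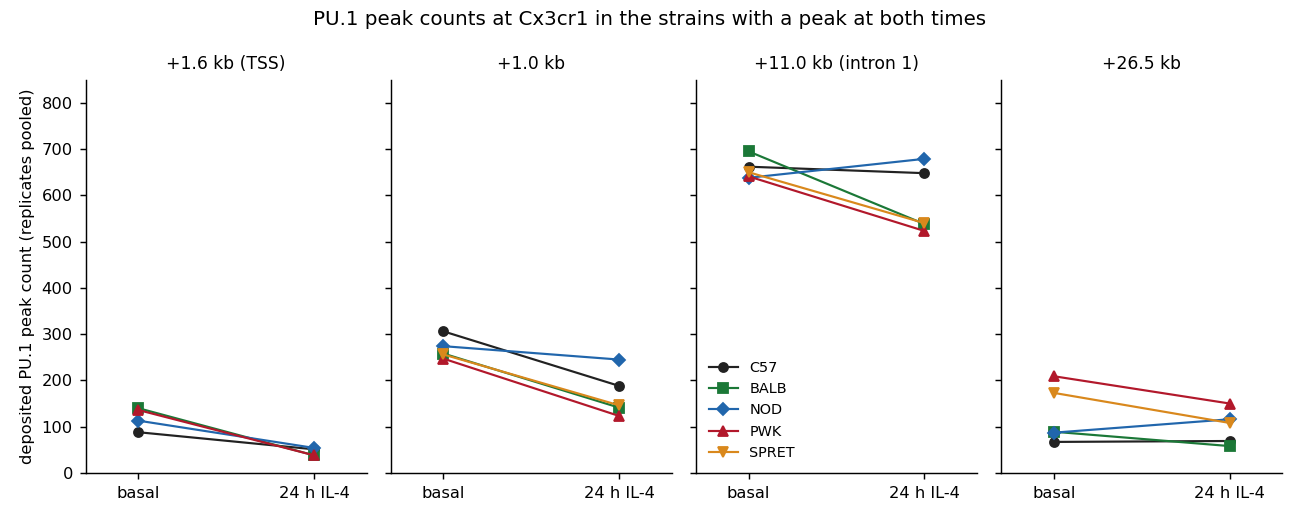
PU.1 tag counts of the authors' peaks (vertical axis from 0) at the +1.6, +1.0, +11 and +26.5 kb sites, basal and after 24 h of IL-4, in the strains with a peak at both times. Counts at the intron 1 peak (+11 kb) are between 523 and 695 in all lists, and those at +1.6 kb are at or below 54 after IL-4.

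STAT6, the factor that IL-4 activates, had a peak at +11 kb in the basal lists of all 5 strains, where it ranked 74 in C57, 92 in BALB, 65 in NOD, 71 in PWK and 159 in SPRET by count. Its count as the authors give it went from 141 to 144 in C57, stayed at 71 in BALB, and went from 115 to 90 in NOD, 95 to 165 in PWK and 92 to 128 in SPRET. Relative to the median change of all STAT6 peaks shared by a strain's lists, the log2 ratio was -0.23 (C57), -0.34 (BALB), -0.40 (NOD), -0.30 (PWK) and -0.33 (SPRET), and 22 to 32% of shared peaks had a ratio as low. At the promoter STAT6 peaks were listed basally in 3 strains at +1.6 kb and 4 at +1.0 kb, and at 24 h in 0 and 3. C/EBPb, a basic leucine zipper factor of myeloid cells, was listed at +11 and +26.5 kb in all 5 strains in both conditions, and at +1.6 kb in 1 strain basally and 0 at 24 h.

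PPARg, a nuclear receptor induced by IL-4, was listed at -13.4 kb in all 5 strains in both conditions, at the site that held AGGTCA. At 24 h this peak stood among the top 5.0% of its list by count in C57, 6.79% in BALB, 2.66% in NOD and 1.54% in PWK, and at 84.62% in SPRET. H3K27ac at that site was within the overlap of the groups, as given above. EGR2 was listed at +26.5 kb basally in 4 strains and at 24 h in 5.

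The level of H3K27ac at the start region over the 20 basal and 24 h libraries was compared with that of 11568 genes having a start region in all 5 tables. Apart from Gm33858, which shares the region, the genes most like Cx3cr1 were Cxcr3 (r = 0.941), Gm10392 (0.935), Gm13814 (0.93), Runx2os2 (0.914) and Gm34589 (0.908). These correlations follow the contrast that chose the locus, and are given as a description. Cxcr3, the receptor for the interferon-induced chemokines, had mean H3K27ac of 117.61 tags basally and 18.84 after IL-4 in C57 (-2.60) and 131.37 and 21.58 in BALB (-2.54). These values are given without a test, because the same libraries placed Cxcr3 first. Its Pol II fell in PWK (-1.90, limma adjusted p = 0.016).

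Among 16 other chemokine receptor genes, 4 to 6 had a region at their start, and Cxcr3 was the only one past limma or the fold rule for H3K27ac or Pol II in any strain. By the fold rule it was 1 of 5 in C57 and BALB, 1 of 4 in NOD and 1 of 6 in PWK for H3K27ac. The shares of all regions were 7.55, 5.13, 5.14 and 3.01%. For Pol II it was 1 of 5 in C57, 1 of 4 in NOD and 1 of 6 in PWK, beside 1.66, 1.25 and 0.932% of all regions. The median H3K27ac difference of these receptor genes was -0.47 in C57, -0.52 in BALB, -0.35 in NOD, -0.54 in PWK and -0.45 in SPRET, beside -0.28, -0.30, -0.20, -0.18 and -0.09 over all regions. Of 15 genes that accompany Cx3cr1 in microglia, 7 to 11 had a region. Limma called 1 of these, P2ry13, an ADP receptor, for Pol II in PWK (-1.60, adjusted p = 0.018), beside 0.281% of all regions. By the fold rule H3K27ac was also lower at P2ry12, another ADP receptor and a microglial marker, in C57 (101.62 to 29.95 tags), BALB (159.54 to 51.94) and NOD (150.56 to 46.02), and at P2ry13 in BALB (228.02 to 86.75). These were 1 of 10 genes in C57, 2 of 11 in BALB and 1 of 11 in NOD, beside 7.55, 5.13 and 5.14% of all regions. Pol II was lower by this rule at P2ry12 in NOD (26.08 to 6.15 tags) and PWK (32.99 to 12.47), and at P2ry13 in NOD (41.5 to 14.57) and PWK (78.99 to 24.47). These were 2 of 11 genes in each of NOD and PWK, beside 1.25 and 0.932% of all regions. The other list members did not pass the fold rule for either mark. The H3K27ac medians of this list were -1.04, -0.47, -0.42, -0.74 and -0.32. Of 17 ligand and signalling genes of CX3CR1, 15 to 17 had a region and 0 passed limma for either mark. By the fold rule, H3K27ac in C57 was lower at 3 of 16, beside 7.55% of all regions. These were Arrb2, Gng2 and Pik3cg, which encode a beta-arrestin, a G protein gamma subunit and a phosphoinositide kinase. Itgb3, an integrin beta chain, was higher by this rule in C57 for H3K27ac (13.46 to 35.2 tags) and Pol II (10.41 to 36.27), and in NOD for both (10.88 to 32.75 and 5.7 to 30.68). Among the macrophage markers, the Fc receptor gene Fcgr1 was lower by the fold rule for both marks in C57, BALB, NOD and PWK, and by limma in PWK (H3K27ac -2.52, adjusted p = 0.048, and Pol II -2.97, adjusted p = 0.0058). Lyz2, which encodes lysozyme, was lower by the fold rule for both marks in C57. For each mark the rule thus called 2 of 8 macrophage markers in C57 and 1 of 8 in each of BALB, NOD and PWK. The shares of all regions in these strains were 7.55, 5.13, 5.14 and 3.01% for H3K27ac and 1.66, 0.929, 1.25 and 0.932% for Pol II. The summed H3K27ac of the 8 macrophage markers also went from 4778.5 to 2045.3 tags in C57 and from 2906.4 to 2333.9 in SPRET (7 markers), and its part in the locus values was not tested.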

How the data were processed

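Per the labels and the methods, reads were mapped by the authors with Bowtie2, for each strain against its own genome. They shifted the coordinates to mm10, and counted tags over merged regions with HOMER. Per the file headers, the deposited signal is tags normalized to 10000000 per library. Peaks were called by the authors in each replicate and compared between replicates with the irreproducible discovery rate, which left 1 list per group with a deposited score and a tag count, a signal of which the scaling is not given in the sources used here. For all libraries used, 100.0% of the values were whole reads (tolerance 0.05 read). 4 columns matched no sample and were not used.

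Each strain table was fitted with limma 3.58.1 (R 4.3.3) on log2(tags + 1), with no filter and Benjamini-Hochberg adjustment over all regions, called at 0.05. The fold rule asks for 2.5-fold between means plus 1 and at least 16 tags (8 for Pol II). Alternatives were a pseudocount of 5, a filter on low values, median-ratio scaling, edgeR 4.0.16 and DESeq2 1.42.0 on the recovered reads, a replicate block, and leaving out each library. Tables, peaks, sequences and plots used Python 3.11.15, pandas 2.3.3, numpy 2.4.6, pysam 0.24.0 and matplotlib 3.10.9. The locus, the gene lists and the tests were chosen with earlier results of these data known. The TSS region, the counts of groups that do not overlap and the PU.1 count ratios were added after the data were seen. Genes named are Cx3cr1, those starting in the window, the 5 most alike at the start region, and members of the lists past limma or the fold rule, with the lists of other cell types given as sums. Peaks were matched by an overlap of 1 bp.

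Same-numbered Pol II libraries deviated together from their group means in every pair in C57 (r = 0.184, 0.292 and 0.384), PWK (0.614, 0.412 and 0.491) and SPRET (0.433, 0.397 and 0.399). So did those of the time course at 24 h (0.168, 0.26 and 0.355). The labels state no shared animal or day. Pairing by replicate number was therefore used only in the fits with a replicate block. All other fits and the permutation tests treated the libraries as unpaired. The fit was tested on simulated data: with the 4 C57 H3K27ac libraries and 67742 regions, limma recovered 27% of 4-fold and 0% of 2-fold changes, and with the 7 C57 Pol II libraries 99% and 42%.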

Additional observations from a re-analysis of the deposited data

Results flagged for a closer look

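In basal C57 cells, where Pol II had 4 libraries, 1 library stood apart at 2 regions of the Cx3cr1 window: the lowest library at +32.3 kb had 28.09 tags, and the highest at -3.4 kb had 11.14 tags. The check was made on 13 groups, which are the same 4 libraries at 13 regions of 1 locus. Chance flags about 1 in 20 single groups of this size. The 13 are not independent, so that rate does not give how often chance would flag regions here.

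At a few regions with low levels, every treated library was higher than basal in 1 strain and lower in another, and the difference between the strains was not tested. At -13.4 kb the log2 difference in H3K4me2 was 0.632 in C57 (11.82 to 18.09 mean tags) and -0.57 in BALB (11.75 to 7.54). H3K4me3 there was higher in C57 (0.886), NOD (1.435) and PWK (1.085), and lower in BALB (-1.27), at means of at most 3.39 tags. At +26.5 kb H3K4me3 was higher in BALB (0.594, 3.21 to 5.14 tags) and lower in SPRET (-1.28, 6.38 to 2.31). At -3.4 kb it was higher in PWK (1.859, 0.38 to 3.90 tags) and lower in C57 (-0.38) and SPRET (-0.47).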

How the results depend on the processing

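All 664 recomputed promoter differences against basal, for 56 values at the start and TSS regions, stayed negative. The 56 include H3K27ac in BALB and PWK, which chose the locus, the C57 24 h contrast from both tables, and means over strains of the same values. Every treated library there was below every basal one of its strain, so leaving out a library could not change a sign. The constant sign is therefore no further support. The calls moved more than the values, and the precision was limited by 1 to 4 libraries a group.

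With DESeq2 the start-region difference passed for C57 H3K27ac (-3.34, adjusted p = 0.000286), NOD H3K27ac (-2.80, 0.0131) and NOD Pol II (-2.68, 0.00991) and missed for C57 H3K4me2 (-1.26, 0.334), and 4 (C57 H3K27ac), 5 (NOD H3K27ac) and 2 (NOD Pol II) regions of the window were lower, with 4 for H3K27ac at 24 h and 3 for Pol II at 1 h in the time course. With edgeR, C57 H3K4me2 (-1.29, adjusted p = 0.0837) and H3K27ac at 1 h (-2.35, 0.0943) missed and SPRET H3K4me3 (-3.29, 3.15e-06) passed, and 2 (C57 Pol II), 0 (H3K27ac at 1 h) and 3 (Pol II at 6 h) regions were lower. With median-ratio scaling, C57 H3K4me2 (-1.20, limma adjusted p = 0.106) and H3K27ac at 1 h (-2.47, 0.0965) and 24 h (-3.16, 0.0583) missed, and 1 (SPRET H3K27ac), 0 (H3K27ac at 1 h), 1 (at 24 h) and 3 (Pol II at 6 h) regions were lower. With a pseudocount of 5, NOD H3K4me3 passed (-1.75, limma adjusted p = 0.0327), Pol II at 1 h missed (-3.06, 0.0721), and 4 (H3K27ac at 24 h) and 0 (Pol II at 1 h) regions were lower. With a filter on low values NOD H3K4me3 passed (-2.52, 0.00112). The counts of this paragraph have no share of all regions beside them. They show how calls moved between settings and are not results about the window. The causes were not tested.

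The replicate block left the differences at the same size. With it, limma passed for C57 H3K27ac (-3.44, adjusted p = 2.31e-11) and H3K4me3 (-1.93, 0.00164), NOD H3K27ac (-3.29, 1.73e-21), Pol II (-2.57, 2.49e-05) and H3K4me3 (-2.52, 0.00024) and SPRET H3K4me2 (-1.82, 4.83e-06), and missed for BALB Pol II (-2.62, 0.118). The counts with the block were 11 (C57 H3K27ac), 0 (BALB Pol II), 12 (NOD H3K27ac), 9 (NOD Pol II), 9 (SPRET Pol II) and 8 (H3K27ac at 24 h). For SPRET Pol II the fit with the block called 4.83% of all regions lower. Its shares for the others are not given, so those counts are not read as results about the window. Apart from Pol II in C57, PWK and SPRET, groups shared at most 2 numbers. Their same-numbered libraries also deviated together (r of 0.2 to 0.717 in the strain tables), but by the labels they share only a number. At the start region the block changed no other call.

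Leaving out 1 library, the start-region difference ranged from -4.29 to -2.60 (C57 H3K27ac), -3.52 to -2.88 (C57 Pol II), -2.26 to -1.51 (C57 H3K4me2), -3.01 to -2.18 (BALB Pol II), -1.46 to -1.02 (BALB H3K4me2), -4.44 to -2.14 (NOD H3K27ac), -1.39 to -0.78 (NOD H3K4me2), -3.11 to -2.19 (SPRET H3K27ac), -3.62 to -2.68 (SPRET Pol II) and -2.44 to -1.20 (SPRET H3K4me2). In the time course it ranged from -4.12 to -2.41, -4.80 to -3.09 and -4.34 to -2.62 for H3K27ac at 1, 6 and 24 h, and from -4.76 to -4.21, -4.29 to -3.74 and -3.47 to -2.82 for Pol II. Counts of lower regions for Pol II ranged from 0 to 6 (C57), 0 to 1 (BALB), 2 to 7 (PWK) and 0 to 2 (SPRET), and from 1 to 6 at 24 h in the time course. Fits that leave 1 library in a group are left out of these ranges. The ranges show how calls moved and have no share of all regions beside them. Counts by the fold rule ranged from 5 to 10 (C57 H3K27ac), 4 to 7 (BALB Pol II), 5 to 9 (SPRET H3K27ac) and 5 to 9 (SPRET Pol II). With the better-scoring peaks of each list (ranked above its middle peak), 3 sites held all 5 factors. The alternatives for the Egr2 genotype were not run, because its tables held no region in the window.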

Other observations

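The C57 peak lists of the earlier times hold values that the comparisons above do not use, and they have no replicate error. By the authors' counts, the STAT6 peak at +11 kb had 141 tags basally, 264 at 1 h, 231 at 6 h and 144 at 24 h, and that at +26.5 kb had 76, 144, 144 and 75. The 2 STAT6 promoter peaks of the basal list, with 32 and 38 tags, were not listed at 1 or 6 h. The EGR2 peak at +26.5 kb had 84, 104, 182 and 217 tags at these times, and that at +11 kb had 39, 84, 87 and 96. The EGR2 tags per library given above differ in direction at some times, since they at 1 h were below basal at both sites and at 24 h averaged 46.55 against 56.18 basally at +11 kb. Whether these counts are scaled for depth is not given in the sources used here.

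Some PU.1 peaks were listed in few strains. That at +35.4 kb was listed basally in 1 strain and after 24 h of IL-4 in 4, and that at +41.9 kb in 2 and 0.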
